A study of Homo sapiens with 20 samples.

Results

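The 10 genes described here encode regulators of the G1 phase of the cell cycle that textbook accounts place under microRNA control: the inhibitors CDKN1A, CDKN1B and CDKN2C, the cyclins CCND1, CCND2, CCND3 and CCNE1, the kinase CDK6, the transcription factor E2F1 and the pocket protein RB1. They were chosen by name with earlier results of these data known, so counts of members called are a description. All 10 were found among the 57087 genes of the 14 libraries. Levels are given as CPM (counts relative to library depth), from the authors' estimated transcript counts after adding up the transcripts of each gene.

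In G1, D-type cyclins bind CDK4 or CDK6 and phosphorylate RB1, which releases E2F transcription factors, and cyclin E with CDK2 continues this step into S phase. CDKN1A (p21) and CDKN1B (p27) bind cyclin-kinase complexes, whereas CDKN2C (p18) binds CDK4 and CDK6 themselves. MicroRNAs are cut from precursors by Drosha and then Dicer, and bound to Ago proteins they repress mRNAs that hold matches to their seed, usually in the 3′ UTR.

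HEK293 is a human embryonic kidney line transformed with adenoviral early genes, and HEK293T also carries the SV40 large T antigen. These viral proteins bind RB and p53 pathway proteins, so G1 control is altered in such lines. For mRNA-seq, 3 wt libraries (labelled HEK293T) and 3 shDicer libraries (labelled HEK293 2B) were made, and the labels give 3 µg/ml doxycycline for 7 days in both. For chromatin-associated RNA sequencing (chrRNA-seq), which samples RNA still held on chromatin, wt, shDicer, shAgo2 and shDrosha had 2 libraries each. The shDicer and shAgo2 lines carry doxycycline-inducible hairpins and received 3 µg/ml for 72 h. The libraries labelled shDrosha came, per the labels, from cells given a plasmid with a hairpin to DROSHA, and doxycycline is not stated for them or for wt. The study's methods list a clone with both a tagged Dicer and the shDicer hairpin beside lines with the hairpin, without saying which was sequenced. No line with a scrambled hairpin is among these libraries. In shDicer and shAgo2 against wt, an effect of the knockdown therefore cannot be told apart from a difference between lines. In chrRNA-seq the same holds for doxycycline if wt was not given it. Transfection is likewise mixed with the knockdown in shDrosha against wt, as no library is labelled as given a control plasmid. Contrasts of shDicer or shAgo2 with shDrosha also mix the knockdowns with transfection, and with line and doxycycline where these differ. Neither labels nor methods say that replicates were separate cultures, so p-values measure the spread between these libraries.

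Libraries held 10216430 to 17215978 counts in mRNA-seq and 17484067 to 21553760 in chrRNA-seq. DICER1 fell in shDicer mRNA (log2 fold change −1.49, adjusted p = 1.28e-07 from edgeR), but its chromatin RNA had −0.18 (adjusted p = 0.166). AGO2 fell in shAgo2 chromatin RNA (−0.62, adjusted p = 9.29e-05), where DICER1 rose by 0.78 (204 and 214 CPM against 119 and 124 in wt). DROSHA had 0.07 in shDrosha (adjusted p = 0.697). In chromatin RNA a knockdown was therefore not visible for DICER1 in shDicer or for DROSHA in shDrosha. The study measured steady-state transcripts of each target by qRT-PCR in the samples it used for chromatin sequencing. It also describes the Drosha knockdown as successful by western blot. How far chromatin RNA reflects such a knockdown was not tested, and shDrosha below names the libraries by their label. All 5 HEK293 markers examined had counts in every library. NEFM, a neurofilament gene, fell in shDicer mRNA by 3.94 on the log2 scale and in shAgo2 chromatin RNA by 4.71, and NEFL rose by 4.77 and 2.91. In shDrosha chromatin RNA, 2 of the 5 markers fell and 0 rose, where 2.18% of all genes fell, and the lowest marker value was −1.07. Whether these shifts bear on the results below was not tested. Markers of blood, fibroblast, endothelial and liver cells summed to between 0.626 and 1.24 TPM in mRNA-seq and between 19.0 and 30.3 TPM in chrRNA-seq.

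The mature sequences of microRNAs with seed matches in these genes are shown 5′ to 3′, from RefSeq on GRCh38.p14, with the seed (bases 2 to 8) in capitals. The 2 members of the miR-15, miR-17 and miR-221 families shown share a seed.
hsa-let-7a-5p: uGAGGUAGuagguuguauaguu
hsa-miR-15a-5p: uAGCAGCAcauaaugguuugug
hsa-miR-16-5p: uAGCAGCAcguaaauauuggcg
hsa-miR-17-5p: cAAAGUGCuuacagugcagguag
hsa-miR-106b-5p: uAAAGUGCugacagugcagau
hsa-miR-221-3p: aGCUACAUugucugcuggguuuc
hsa-miR-222-3p: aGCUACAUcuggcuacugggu

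Matches to the 7-base seeds of 8 such families were counted in the 3′ UTR of each member. CDK6, with a 3′ UTR of 10219 bases, held 10 matches and CCND2 held 8. CDKN1A and CCND1 held 4 each, CDKN1B, CCNE1 and E2F1 held 3 each, RB1 held 2, CCND3 held 1 and CDKN2C held 0. CDKN1B had 2 matches to the miR-221 family, a seed matched in 8.14% of 19229 genes with a 3′ UTR. CCNE1 had 2 matches to the miR-15 family, which is matched in 21.4% of genes, and CDKN1A had 1 to let-7, matched in 9.71%. Examples are shown for the 4 members that rose in shDicer and for CCNE1, which fell in the libraries labelled shDrosha. Matches in CCND2, CCND3, E2F1 and RB1 are counted above but not shown, so the examples do not relate matches to changes. The matched bases are in capitals.
CDKN1B, chr12:12721212-12721235, plus strand: cctctaaaagcgttggATGTAGCa
CDKN1B, chr12:12721285-12721308, plus strand: atagtttttaccttttATGTAGCa
CDKN1A, chr6:36686727-36686750, plus strand: gaagggcaccctagttCTACCTCa
CDKN1A, chr6:36686252-36686275, plus strand: gagaagtaaacagatgGCACTTTg
CCND1, chr11:69653299-69653322, plus strand: tctctttcacattgttTGCTGCTa
CDK6, chr7:92608320-92608343, minus strand: gtaaacaaattatctcATGTAGCa
CCNE1, chr19:29824008-29824031, plus strand: cagtgcgtgctcccgaTGCTGCTa
A match is a description of the sequence and not a measured site. MicroRNA levels were not analysed here.

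In mRNA, 4 of the 10 genes rose in shDicer and 0 fell at an adjusted p under 0.001, where 15.6% of 15090 genes tested rose and 14.2% fell. DESeq2 also called 0 of them lower, while 3 were lower at an unadjusted p under 0.05 in edgeR. In chromatin RNA at an adjusted p under 0.005, 4 rose and 2 fell in shDicer (11.0% and 10.5% of 32874 genes), and 3 rose and 1 fell in shAgo2 (12.5% and 12.1%). In shDrosha, at the adjusted p under 0.05 that the study used for this group, 1 rose and 1 fell (1.19% and 2.18%). With library size only, this balance of all genes in shDrosha turned, to 768 genes higher and 527 lower. The chromatin comparisons share the wt libraries. CDKN1A, CDKN1B, CCND1 and CDK6 rose in both fractions of shDicer, CDKN1A, CCND1 and CDK6 rose in shAgo2, and CDKN1A rose in all 4 comparisons.

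**Figure D1:**
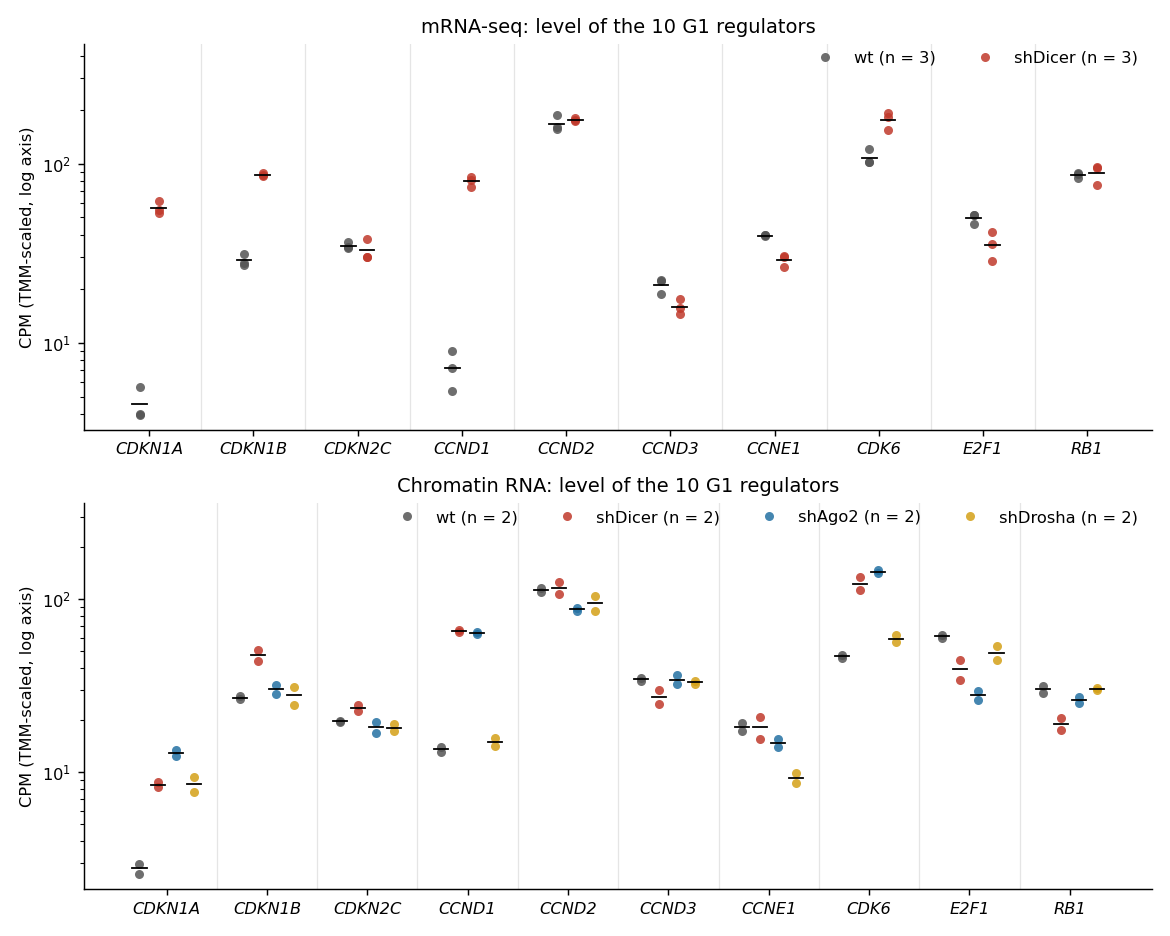
CPM of each gene in every library on a log axis, with mRNA-seq above and chromatin RNA below. Points are libraries, coloured by group, and bars are group means. CDKN1A and CCND1 shDicer libraries sit far above wt in mRNA (52.7 to 61.5 against 3.97 to 5.63 CPM for CDKN1A).

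CDKN1A (chr6:36676460-36687337) encodes p21, a p53 target that inhibits cyclin-CDK complexes. Its mRNA had 3.97, 4.0 and 5.63 CPM in the wt libraries and 61.5, 55.1 and 52.7 CPM in shDicer. All shDicer libraries were above all wt libraries, and mRNA rose 12.5-fold (log2 fold change 3.65, SE 0.147, adjusted p = 1.72e-08 from edgeR). In chromatin RNA, wt had 2.96 and 2.59 CPM, shDicer 8.21 and 8.74, shAgo2 12.4 and 13.5, and shDrosha 7.65 and 9.42. Each knockdown lay above both wt libraries. The log2 fold changes reached 1.60 for shDicer (SE 0.167, adjusted p = 1.52e-05), 2.22 for shAgo2 (SE 0.159, adjusted p = 6.26e-07) and 1.62 for shDrosha (SE 0.168, adjusted p = 0.00168). Between shDicer and shAgo2 the difference of −0.61 did not pass (adjusted p = 0.0121), and between shDicer and shDrosha it was −0.01 (SE 0.137, adjusted p = 0.958). In wt chromatin RNA, protein-coding transcripts held 52.4% of CDKN1A counts, against 97.6% in wt mRNA.

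CDKN1B (chr12:12685498-12722369) encodes p27, which restrains cyclin E-CDK2. Its mRNA had 27.1, 27.8 and 31.4 CPM in wt and 86.3, 88.4 and 84.9 CPM in shDicer, with no overlap, and rose 3.01-fold (log2 fold change 1.59, SE 0.0860, adjusted p = 1.31e-07). In chromatin RNA, wt had 27.6 and 26.5 CPM and shDicer 43.8 and 50.9. This was an increase of 0.81 (SE 0.120, adjusted p = 0.000228), which did not pass without wt replicate 2 (adjusted p = 0.00527). In shAgo2, the values were 28.5 and 31.9 CPM (log2 fold change 0.16, SE 0.123, adjusted p = 0.329). In shDrosha they were 31.2 and 24.6 CPM (0.04, SE 0.124, adjusted p = 0.890). The study also charts steady-state CDKN1B RNA for wt and for its Drosha and Dicer knockdowns. Those measurements were not compared with the chromatin values here. The direct difference of 0.65 between shDicer and shAgo2 (SE 0.117) passed only at the edge, with an adjusted p of 0.004997, in a comparison where 1.37% of genes were higher and 1.34% lower. CDKN1B was the 1 member higher there, and 0 were lower in edgeR, also by DESeq2 (4 at an unadjusted p under 0.05 in edgeR). The call was lost in 12 of 19 alternatives. The median log2 fold change of the 50 genes nearest to CDKN1B was 0.53 in mRNA and 0.36 in shDicer chromatin RNA. With that median subtracted, the mRNA change was 1.06 and still called, and the chromatin change was 0.45 (adjusted p = 0.0141).

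CDKN2C (chr1:50960745-50974634), which encodes p18, was not called in any comparison with wt. Its mRNA had 34.2, 36.4 and 33.8 CPM in wt and 29.9, 38.0 and 30.2 CPM in shDicer, and these ranges overlapped (log2 fold change −0.09, SE 0.114). In chromatin RNA shDicer had a log2 fold change of 0.26, shAgo2 one of −0.11 and shDrosha one of −0.12, with adjusted p-values from 0.0702 to 0.593.

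CCND1 (chr11:69641156-69654474), the D-type cyclin most often induced by growth signals, had 5.35, 7.2 and 9.01 CPM in wt mRNA and 84.5, 74.1 and 80.9 CPM in shDicer. It rose 11.2-fold (log2 fold change 3.49, SE 0.154, adjusted p = 3.10e-08). On chromatin, CCND1 had 14.0 and 13.1 CPM in wt, against shDicer at 64.8 and 66.6, shAgo2 63.5 and 64.4, and shDrosha 14.2 and 15.8. The shDicer and shAgo2 libraries stood far above wt and shDrosha, with log2 fold changes of 2.28 (SE 0.0889, adjusted p = 5.19e-09) and 2.24 (SE 0.0889, adjusted p = 5.38e-09). In shDrosha it was 0.14 (SE 0.0981, adjusted p = 0.473). Against shDrosha directly, CCND1 was higher by 2.13 in shDicer (adjusted p = 7.61e-09) and by 2.09 in shAgo2 (adjusted p = 8.67e-09). These direct contrasts were added after the data had been seen. In them, 4 members were higher and 1 lower in shDicer (11.0% and 9.51% of all genes tested), and 4 higher and 1 lower in shAgo2 (11.6% and 10.3%). The median log2 fold change of the 50 nearest genes was −0.16 in mRNA, −0.51 in shDicer and −0.66 in shAgo2 chromatin RNA.

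CCND2 and CCND3 were not called against wt in any comparison. CCND2 (chr12:4269771-4305353), the most abundant D-type cyclin by TPM in wt mRNA, had 159.5, 155 and 186 CPM in wt mRNA and 175, 174 and 179 CPM in shDicer. Its chromatin RNA was lower in both shAgo2 libraries (89.4 and 85.8 CPM against 110.1 and 117 in wt), but the difference of −0.37 (SE 0.107, adjusted p = 0.0146) did not pass, and passed without shDrosha replicate 1 (adjusted p = 0.00405) or replicate 2 (adjusted p = 0.00383). It also passed with no low-count filter (adjusted p = 0.00480), with length-scaled counts (−0.66, adjusted p = 0.000180) and in a fit of only shAgo2 and wt (adjusted p = 5.76e-05). The 50 genes nearest to CCND2 had a median of −0.51 in shAgo2, and with it subtracted the CCND2 value turned to 0.14 (adjusted p = 0.356). Of CCND2's 31-base words, 12.2% also occur in another annotated gene. CCND3 (chr6:41934934-42050357) had 18.7, 22.5 and 22.1 CPM in wt mRNA and 17.6, 14.5 and 15.6 CPM in shDicer, a difference of −0.41 (SE 0.125, adjusted p = 0.0163).

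On the TPM scale, which accounts for transcript length, CCND1 made up 4.49% ± 0.264 (SD, n = 3) of summed D-type cyclin TPM in wt mRNA and 34.3% ± 4.36 (n = 3) in shDicer. In chromatin RNA the share was 11.3% ± 0.524 (n = 2) for wt and 37.8% ± 2.12 for shDicer. It was 44.7% ± 0.493 for shAgo2 and 14.7% ± 3.48 for shDrosha. An exact two-sided permutation test gave 0.1 for mRNA and 0.333 for each chromatin comparison, the smallest values that these group sizes allow. In wt chromatin RNA, retained-intron transcripts held 79.7% of CCND1 TPM, 60.1% of CCND2 TPM and 11.4% of CCND3 TPM. Of counts they held 34.8%, 10.4% and 10.6%. The chromatin shares therefore depend on the choice of TPM over counts.

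**Figure D2:**
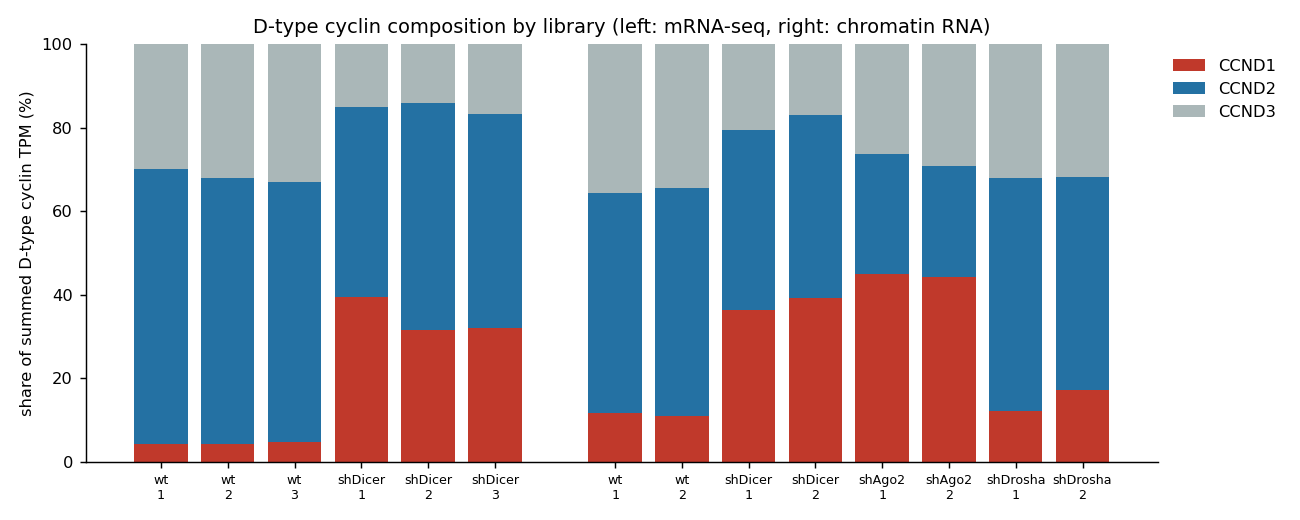
Share of each D-type cyclin in their summed TPM (in percent, stacked from 0 to 100), 1 bar per library, with mRNA-seq on the left and chromatin RNA on the right. The CCND1 share is largest in shDicer and shAgo2, at 44.7% on average in shAgo2.

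CDK6 (chr7:92604921-92836573), the kinase partner of D-type cyclins, had 102, 102 and 120.2 CPM in wt mRNA and 154, 182 and 191 CPM in shDicer. It rose by 0.71 on the log2 scale (SE 0.0992, adjusted p = 0.000122), and the call was lost without wt replicate 2 (adjusted p = 0.00115) and when the median of its 50 nearest genes, 0.33, was subtracted (0.38, adjusted p = 0.00814). On chromatin, CDK6 had 46.1 and 48.0 CPM in wt, against shDicer at 113 and 134, shAgo2 143 and 147, and shDrosha 62.1 and 56.6. The shDicer and shAgo2 libraries lay well above wt, with log2 fold changes of 1.39 (SE 0.0942, adjusted p = 4.82e-07) and 1.62 (SE 0.0943, adjusted p = 1.18e-07). Both shDrosha libraries were also above wt, but the 0.34 difference did not pass (SE 0.0956, adjusted p = 0.0798). It passed without shDicer replicate 1 (adjusted p = 0.0371) or replicate 2 (adjusted p = 0.0341), with library size only (adjusted p = 0.0266) and with protein-coding transcripts only (adjusted p = 0.0405). The transcript CDK6-201 held 95.6% of CDK6 TPM in wt mRNA and 8.48% in wt chromatin RNA. All protein-coding transcripts of CDK6 held 61.4% of its TPM and 93.7% of its counts in wt chromatin RNA. Retained-intron transcripts held 4.63% of these counts.

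CCNE1 (chr19:29811991-29824312), which encodes cyclin E1, had 39.8, 39.2 and 39.9 CPM in wt mRNA and 26.4, 30.6 and 30.2 CPM in shDicer, with no overlap, but the difference of −0.45 (SE 0.0968, adjusted p = 0.00237) did not pass. On chromatin, CCNE1 had 19.4 and 17.2 CPM in wt, against shDicer at 20.9 and 15.7, shAgo2 15.6 and 14.0, and shDrosha 8.62 and 9.96. Of the comparisons with wt, CCNE1 fell in that of the libraries labelled shDrosha (log2 fold change −0.98, SE 0.151, adjusted p = 0.00774). This call was lost without wt replicate 1 (adjusted p = 0.1004) or wt replicate 2 (adjusted p = 0.0526), and with protein-coding transcripts only (adjusted p = 0.0538). Against shDrosha directly it was higher by 0.98 in shDicer (adjusted p = 0.000315) and by 0.67 in shAgo2 (adjusted p = 0.00412). The shAgo2 call was lost in 11 of 19 alternatives, among them each that left out a wt, shAgo2 or shDrosha library (adjusted p up to 0.0439). The median log2 fold change of the 50 nearest genes was 0.69 in mRNA, 0.67 in shDicer and 0.74 in shAgo2 chromatin RNA. With it subtracted, CCNE1 had −1.13 in mRNA (adjusted p = 4.87e-06), −0.68 in shDicer (adjusted p = 0.00323) and −1.05 in shAgo2 (adjusted p = 0.000158), all called. The same subtraction ended both calls against shDrosha, at 0.30 for shDicer (adjusted p = 0.150) and −0.072 for shAgo2 (adjusted p = 0.757). With protein-coding transcripts only, the call of shDicer against shDrosha was also lost (adjusted p = 0.00794). In wt chromatin RNA, retained-intron transcripts held 43.6% of CCNE1 counts, against 1.91% in wt mRNA.

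E2F1 (chr20:33675477-33686385), a transcriptional activator of S phase genes, had 51.6, 51.5 and 46.0 CPM in wt mRNA and 41.6, 35.6 and 28.6 CPM in shDicer. All shDicer libraries were lower, but the difference of −0.50 (SE 0.131, adjusted p = 0.00694) did not pass, and passed without shDicer replicate 1 (adjusted p = 0.000682) or without the low-count filter (adjusted p = 0.000142). In chromatin RNA, wt had 62.6 and 59.7 CPM, shDicer 44.5 and 34.3, shAgo2 29.5 and 26.4, and shDrosha 44.9 and 53.7. E2F1 fell by 1.13 in shAgo2 (SE 0.126, adjusted p = 2.17e-05) and by 0.64 in shDicer (SE 0.123, adjusted p = 0.00151). The shDicer call was lost without wt replicate 1 (adjusted p = 0.0180), wt replicate 2 (adjusted p = 0.00993) or shDicer replicate 2 (adjusted p = 0.0111). It was also lost with library size only (adjusted p = 0.00640), with unannotated transcripts kept (adjusted p = 0.00922) and with protein-coding transcripts only (adjusted p = 0.0114). With the median of the 50 nearest genes subtracted, E2F1 had −0.64 in shAgo2, still called (adjusted p = 0.00197), and −0.47 in shDicer, not called (adjusted p = 0.0115). In shDrosha the difference was −0.31 (adjusted p = 0.185).

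RB1 (chr13:48303744-48599436) had 88.0, 87.5 and 83.3 CPM in wt mRNA and 75.5, 96.0 and 94.1 CPM in shDicer, which overlapped (log2 fold change 0.04, SE 0.0951, adjusted p = 0.759). Its 50 nearest genes had a median of −0.49, and with that subtracted RB1 mRNA was called higher (0.53, adjusted p = 0.000842). In chromatin RNA, wt had 28.8 and 31.8 CPM, shDicer 17.6 and 20.5, shAgo2 25.1 and 27.2, and shDrosha 30.7 and 30.0. RB1 fell by 0.67 in shDicer (SE 0.103, adjusted p = 0.000310), a call lost without wt replicate 2 (adjusted p = 0.00641) and when the neighbours' median was subtracted (−0.37, adjusted p = 0.0160). In shAgo2 it had −0.21 (adjusted p = 0.114).

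**Figure D3:**
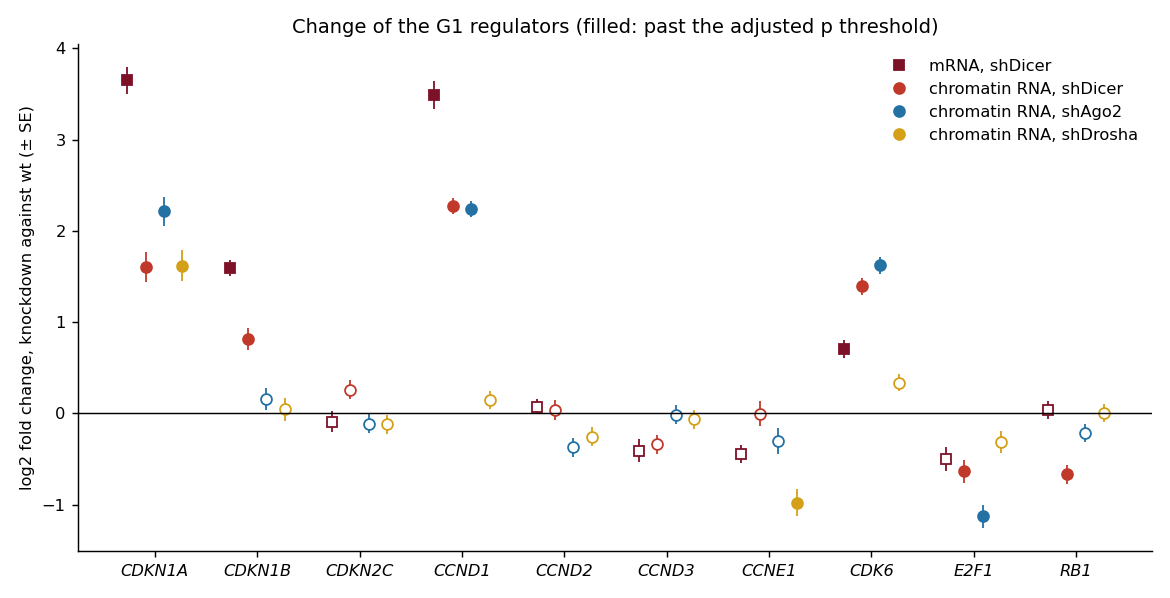
Log2 fold change of each gene against wt (y axis, ± SE) in mRNA for shDicer and in chromatin RNA for shDicer, shAgo2 and shDrosha. Filled symbols passed the adjusted p threshold of their comparison. CDKN1A is filled in all 4, and CCND1 and CDK6 in all but shDrosha.

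To compare the fractions directly, the shDicer change in mRNA was set against that in chromatin RNA in 1 fit of 10 libraries. Library type, the days of doxycycline and the labelled cell line also differ between these changes and cannot be told apart from the RNA fraction. The log2 fold change was larger in mRNA for 4 genes, where larger means more positive and not always greater in size. Among them, RB1 fell in chromatin RNA and its mRNA change was not called. Of 31106 genes, 3.82% were larger in mRNA in this sense and 1.21% smaller, and the median difference of all genes was 0.10. This balance depends on the scaling. From 1189 larger and 375 smaller it became 654 and 579 with RLE normalization (median −0.05), 750 and 505 with library size only (median −0.01) and 1135 and 1138 with DESeq2 (median −0.21). CDKN1A differed by 2.13 (SE 0.246, adjusted p = 3.92e-05), CCND1 by 1.29 (SE 0.196, adjusted p = 0.000405), CDKN1B by 0.86 (SE 0.137, adjusted p = 0.000633) and RB1 by 0.78 (SE 0.153, adjusted p = 0.00298). With length-scaled counts the CCND1 call was lost (1.16, adjusted p = 0.00647), as was that of CDKN1B (0.73, adjusted p = 0.0106). The CDKN1B call was also lost without chromatin wt replicate 1 (adjusted p = 0.00519) or replicate 2 (adjusted p = 0.00629). The RB1 call was lost in 14 alternatives, 8 of which left out 1 library, with adjusted p-values up to 0.0357. CDK6 went the other way, by −0.61 (SE 0.148, adjusted p = 0.0120), which did not pass but passed without mRNA shDicer replicate 3 (adjusted p = 0.00412), with RLE normalization (−0.78, adjusted p = 0.00450), with DESeq2 (−0.78, adjusted p = 0.000310) and with the replicate block (adjusted p = 0.00264). For CCND2, CCND3, CCNE1, CDKN2C and E2F1 the differences lay between −0.37 and 0.21 and were not called.

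**Figure D4:**
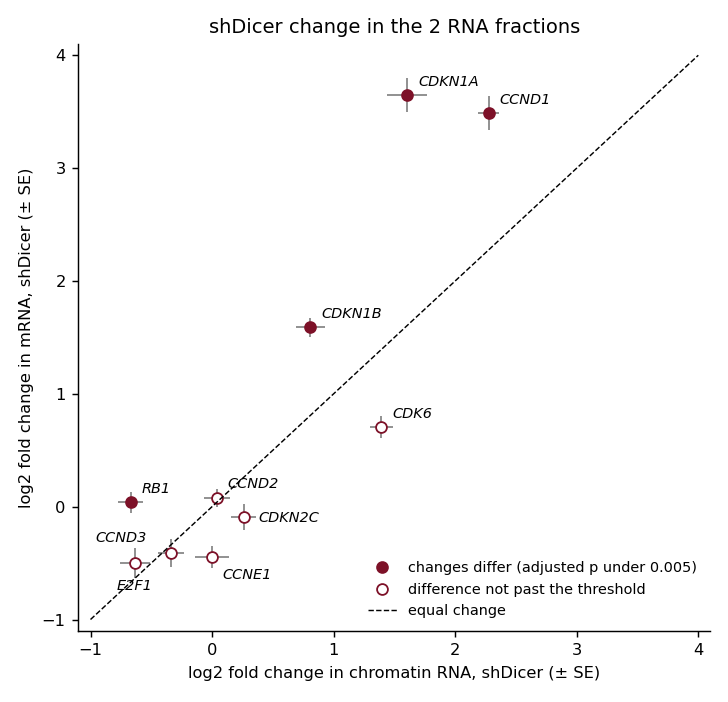
Log2 fold change of each gene in shDicer mRNA (y axis) against that in shDicer chromatin RNA (x axis), both ± SE, with the dashed line marking equal change. Filled points differed between the fractions. CDKN1A, CCND1 and CDKN1B lie above the line and CDK6 below it.

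Other genes of these pathways were described by count and median, from lists also chosen with earlier results of these data known. The shares of all genes called, given above for the members, apply to them too: 15.6% rose and 14.2% fell in mRNA, and in chromatin RNA 11.0% and 10.5% in shDicer, 12.5% and 12.1% in shAgo2, and 1.19% and 2.18% in shDrosha. Of 22 p53 target genes (CDKN1A not among them), 21 were tested in mRNA and 15 rose in shDicer, with a median log2 fold change of 1.22 against 0.01 for all genes tested. FAS, a death receptor, rose by 3.10 (adjusted p = 5.17e-08) and PHLDA3, an Akt inhibitor, by 2.92 (adjusted p = 4.79e-06). In chromatin RNA, 14 of 22 rose and 1 fell both in shDicer (median 0.62) and in shAgo2 (median 0.58), and 2 rose in shDrosha (median 0.17), GADD45A by 0.84 (adjusted p = 0.00753) and ZMAT3 by 0.55 (adjusted p = 0.00994).

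Of 30 replication genes known as E2F targets, 13 fell and 3 rose in shDicer mRNA (median −0.44). In chromatin RNA, 16 fell and 1 rose in shDicer (median −0.57), 13 fell and 0 rose in shAgo2 (median −0.34) and 4 fell and 1 rose in shDrosha (median −0.14). MCM4, a subunit of the replicative helicase, fell by 1.14 in mRNA (adjusted p = 5.62e-06), while the licensing factor CDT1 rose by 1.28 (adjusted p = 0.000871). GINS2 fell by 0.92 in shDicer chromatin RNA (adjusted p = 1.29e-05) and by 0.82 in shAgo2 (adjusted p = 2.41e-05). Of 20 mitotic genes, 4 fell and 1 rose in mRNA, 7 fell and 0 rose in shDicer chromatin RNA, 5 fell and 2 rose in shAgo2 and 5 fell and 0 rose in shDrosha. The mitotic genes that fell made up 20% of the list in mRNA, near the 14.2% of all genes, 35% in shDicer chromatin RNA and 25% in both shAgo2 and shDrosha. At an unadjusted p under 0.05 in edgeR, 3 replication genes were higher in shAgo2 chromatin RNA. At that level, 0 mitotic genes were higher in shDicer or shDrosha chromatin RNA, while 7 were higher and 10 lower in shDicer mRNA. In bulk samples, fewer cells in a phase and less RNA per cell cannot be told apart.

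Of 18 other G1 genes tested in mRNA, 2 rose and 4 fell in shDicer (11.1% and 22.2%, near the 15.6% and 14.2% of all genes). CDKN2B, another inhibitor of CDK4 and CDK6, rose by 1.39 (adjusted p = 3.74e-05) and E2F2 by 1.27 (adjusted p = 4.91e-05), while E2F5 fell by 1.04 (adjusted p = 6.47e-06) and MYC by 0.76 (adjusted p = 0.000264). In chromatin RNA 6 of 19 fell and 0 rose in shDicer, 7 fell and 1 rose in shAgo2, and 2 rose and 0 fell in shDrosha. At an unadjusted p under 0.05 in edgeR, 3 were higher in shDicer chromatin RNA and 1 lower in shDrosha. Among 10 genes for the turnover of these proteins, 3 fell and 1 rose in shDicer mRNA. FBXW7, which directs cyclin E to degradation, fell by 1.01 (adjusted p = 2.24e-05). In chromatin RNA, 5 turnover genes fell in shDicer, 6 in shAgo2 and 0 in shDrosha (also 0 at an unadjusted p under 0.05 in edgeR).

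Of 9 host genes of the microRNA families, 4 fell and 1 rose in shDicer mRNA. In chromatin RNA, 3 fell and 3 rose in shDicer, and 2 fell and 1 rose in shAgo2. In shDrosha 0 were called, with 2 higher and 0 lower at an unadjusted p under 0.05 in edgeR. MIR222HG, which hosts miR-221 and miR-222, fell by 5.10 (adjusted p = 1.65e-07) in mRNA and by 2.79 in shDicer chromatin RNA (adjusted p = 5.19e-09), where it was also lower than in shAgo2 by 2.62 (adjusted p = 9.91e-08). MIR17HG fell by 2.12 (adjusted p = 1.50e-07) in mRNA, and MIR34AHG rose by 3.55 (adjusted p = 4.97e-06). Of the 3 members with matches to the miR-221 seed, CDKN1B (2 matches) was called in shDicer chromatin RNA and not in shAgo2, CDK6 (1 match) was called in both and CCND2 (1 match) in neither. Whether the host transcripts bear on the members was not tested.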

How the data were processed

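The authors quantified each mRNA-seq and chrRNA-seq library with kallisto against human Ensembl transcripts. Per transcript, the authors deposited an estimated count, left unscaled, and a TPM, which corrects for transcript length and library size. Per the labels the mRNA-seq used polyA RNA, while the study's methods describe ribosomal RNA depletion.

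Transcripts were assigned to genes with GENCODE release 44 on GRCh38 (193697 of 217082, 89.2%), and estimated counts were summed per gene and rounded. Tests used edgeR 4.0.16 in R 4.3.3 with filterByExpr, TMM scaling, the quasi-likelihood F test and Benjamini-Hochberg adjustment over all genes tested. The standard error was taken from the fold change and F. The 6 mRNA-seq and the 8 chrRNA-seq libraries were fitted separately, and 10 libraries jointly for the comparison of fractions. Between knockdowns and fractions the threshold was an adjusted p of 0.005. The floor of 3 counts equalled 0.184 to 0.311 CPM per mRNA-seq library and 0.149 to 0.183 CPM per chrRNA-seq library and covers counting error only. The fits were tested on simulated data.

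Members, gene lists and microRNAs were chosen with earlier results of these data known. All 10 members are named, and of each other list at most the 4 called genes with the largest change. Seed matches were searched in the 3′ UTR of 1 transcript per gene. Alternatives were another normalization, no low-count filter, DESeq2 1.42.0, length-scaled counts, unannotated transcripts kept, a replicate block, subtraction of the median of the 50 nearest genes and each library left out. Small RNA-seq of 6 samples was not analysed here.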

Additional observations from a re-analysis of the deposited data

Results flagged for a closer look

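The shDicer change differed between mRNA and chromatin RNA for 4 of the 10 genes, by the test of the difference itself, and in each the change was more positive in mRNA. On the log2 scale the difference was 2.13 for CDKN1A, 1.29 for CCND1, 0.86 for CDKN1B and 0.78 for RB1. For RB1 it rests on a fall in chromatin RNA and an mRNA change that was not called. Groups of 2 or 3 libraries are too small for a search for single libraries that stand apart.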

How the results depend on the processing

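Of 1470 recomputed log2 fold changes of single members, 1301 kept their direction and their side of the threshold, 76 lost a call and 28 gained one. Another 64, not called on either side, turned sign, 14 of them with the neighbours' median subtracted. Of the called values 1 turned sign, CCNE1 in shAgo2 against shDrosha, at −0.072 after that subtraction. No alternative ended the calls of CDKN1A or CCND1 against wt. The number of members lower in shDicer mRNA became 1 without the low-count filter and with the neighbours' median subtracted. Lower in shDicer chromatin RNA, it became 1 with library size only, unannotated transcripts kept, protein-coding transcripts only and neighbours subtracted. Lower in shAgo2, it became 2 without the low-count filter, with length-scaled counts, with neighbours subtracted and in a fit of only those 2 groups. In shDrosha, 2 were higher with library size only and with protein-coding transcripts only, and 0 were lower with the latter. Between shDicer and shAgo2, 0 were higher with RLE normalization, unannotated transcripts kept, protein-coding transcripts only and neighbours subtracted. Against shDrosha, with neighbours subtracted, shDicer had 2 higher and 0 lower and shAgo2 2 higher and 0 lower. In shAgo2 against shDrosha, 2 were higher with library size only, DESeq2, unannotated transcripts kept and protein-coding transcripts only, and 2 were lower with length-scaled counts. Between the fractions, 2 changes were larger (more positive) in mRNA with length-scaled counts, and 1 (CDK6) was smaller (less positive) with RLE normalization and DESeq2. The causes were not tested.

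With 1 library left out at a time, the members called ranged from 3 to 4 higher and 0 to 1 lower in shDicer mRNA. In chromatin RNA they ranged from 3 to 4 higher and 0 to 2 lower in shDicer, 1 to 2 lower in shAgo2, and 1 to 2 higher and 0 to 1 lower in shDrosha. Between shDicer and shAgo2, 0 to 1 were higher, between shAgo2 and shDrosha 2 to 4 were higher and 0 to 1 lower, and between the fractions 2 to 4 were larger and 0 to 1 smaller in mRNA. A group left with 1 library was assumed to vary like the others. The CCND3 share of D-type cyclins in shDrosha minus wt turned to 1.74 percentage points with CPM in place of TPM, from −3.13, and that of CCND2, −0.25, ranged from −2.52 to 2.03 with a library left out.

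Replicate numbers are shared between groups, but libraries of the same number did not all deviate together (correlations of 0.0555 to 0.224 in mRNA-seq and −0.411 to 0.226 in chrRNA-seq). A replicate block changed 4 of 80 single-member calls: 0 members were then higher between shDicer and shAgo2, 2 were higher in shAgo2 against shDrosha and 1 change was smaller in mRNA. With the shDrosha numbers crossed, a pairing chosen after seeing the data like the contrasts with shDrosha and the protein-coding restriction, 2 were lower in shAgo2, 2 higher and 2 lower in shDrosha, 3 higher and 1 lower between shDicer and shAgo2, and 2 lower in shDicer against shDrosha. With 2 libraries per group, small differences of low genes such as CDKN1A in wt chromatin RNA are the least precise.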
